A study of Mus musculus with 15 samples.

Results

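The ribosome's small subunit binds messenger RNA, carries the decoding centre and scans for the start codon, and each of its proteins is encoded by a gene of its own. The genes for these proteins are transcribed in every cell, and their mRNAs begin with a 5′ terminal oligopyrimidine tract (TOP), a C followed by a run of C and T, through which mTOR and the RNA-binding protein Larp1 control their translation and stability together. In the brain they supply ribosomes to cell bodies, glial processes, axons and synapses. In human patients, loss of 1 copy of several of them causes Diamond-Blackfan anaemia.

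The genes described here are the cytosolic small-subunit ribosomal protein genes of the mouse, picked by name (Rps followed by a number, with Rpsa and Fau), which gave 33 of the 30386 genes in the count table. The rule used no measured value, and all 33 passed the filter on low counts that left 11718 genes to test. Messenger RNA from brain was counted at its 3′ ends (QuantSeq) in 15 libraries, 5 in each of 3 groups. Het_B12 libraries came from Tbx1+/- mice, which carry 1 mutant copy of the T-box transcription factor gene Tbx1, given vitamin B12 at 20 mg/kg in PBS by intraperitoneal injection. Het_PBS libraries came from Tbx1+/- mice given PBS, and WT_PBS libraries from wild-type mice given PBS. All animals received 2 injections a week for 4 weeks from the age of 4 weeks. The sources used here do not describe the Tbx1 allele or the strain, and wild types given the vitamin are not analysed here. Whole brain and hemisphere both appear as the tissue in the labels, as do 2 ways of isolating RNA, neither tied to single libraries. Het_PBS 5 and Het_B12 1 carry the same animal number. The labels do not say that every library had its own mouse, and the spread behind the p-values may be partly technical.

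Libraries held 1683258 to 2746122 counts, of which 17471 to 34610 fell in the 33 genes. Tbx1 itself had 1 read over the Het_B12 libraries, 3 over Het_PBS and 3 over WT_PBS, too few to check the genotypes. Defining markers of neurons, astrocytes, oligodendrocytes and the other listed brain cells were detected in every group, with summed neuronal markers at 5122 to 5865 CPM (read counts scaled to library size with TMM factors) in Het_B12, 5065 to 5834 in Het_PBS and 5230 to 6207 in WT_PBS. On the first principal component of all genes (17.3% of variance) the Het_B12 libraries stood at 21.0 to 35.5 and all but 1 of the PBS libraries at -28.2 to -10.9. The library labelled WT_PBS 3 stood at 20.4, next to the lowest Het_B12 library, and Het_PBS 5 stood alone on the second component at 50.4.

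The first bases of the mRNA are the shared feature of these genes, so the start regions of 8 that the results turn on are shown, from RefSeq on build GRCm38.p6, from 35 bases before to 25 bases from the annotated start, 5′ to 3′ on the gene's strand. Capitals mark the longest uninterrupted run of C and T in each window. The first 3 genes were lower in Het_B12 than in Het_PBS, Rps3a1 passed the same test only narrowly, and Rps6, Rps27, Rps23 and Rps2 did not pass it.
Rps25 (chr9:44407679-44407738, plus strand): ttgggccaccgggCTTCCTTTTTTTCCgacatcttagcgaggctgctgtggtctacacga
Rps26 (chr10:128626482-128626541, minus strand): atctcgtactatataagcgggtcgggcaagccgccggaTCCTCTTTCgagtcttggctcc
Rps7 (chr12:28635929-28635988, minus strand): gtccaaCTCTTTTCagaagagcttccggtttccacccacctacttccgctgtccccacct
Rps3a1 (chr3:86142644-86142703, minus strand): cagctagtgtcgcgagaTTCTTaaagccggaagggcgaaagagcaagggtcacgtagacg
Rps6 (chr4:86857343-86857402, minus strand): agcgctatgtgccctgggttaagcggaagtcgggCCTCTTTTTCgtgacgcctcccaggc
Rps27 (chr3:90213624-90213683, minus strand): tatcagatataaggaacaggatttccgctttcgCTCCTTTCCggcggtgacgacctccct
Rps23 (chr13:90923087-90923146, plus strand): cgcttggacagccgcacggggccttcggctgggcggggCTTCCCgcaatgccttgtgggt
Rps2 (chr17:24720028-24720087, plus strand): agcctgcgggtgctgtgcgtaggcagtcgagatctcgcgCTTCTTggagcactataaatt
The run is 14 bases in Rps25, 10 in Rps6, 9 in Rps26 and Rps27, 8 in Rps7, 6 in Rps23 and Rps2 and 5 in Rps3a1. In Rps25, Rps7 and Rps3a1 it begins 22, 29 and 18 bases before the annotated start and ends before that start. The longest run in a window is thus not a measure of the TOP. RefSeq gave 30 start regions for 25 of the 33 genes, and their longest run had a median of 7.5 bases (4 to 17), against 6 over all 32851 start regions in the same window. A run of at least 7 bases occurred anywhere in the window in 18 of the 30 (60.0%), against 34.6% of all. The letters CCGGAAG, a core bound by ETS-family factors such as GABPA, occurred on either strand in 12 of the 30 (40%) in the 300-base window from 250 bases before to 50 after the start, against 8.86% of all. Annotated starts can lie some bases from the start used in brain, so a match or its absence is a description of these letters only.

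The small-subunit genes were lower as a group in Het_B12 than in Het_PBS. Of the 33, 19 (57.6%) were lower and 0 were higher at an adjusted p under 0.05 in edgeR's quasi-likelihood test, where 3.79% of all tested genes were lower and 3.47% higher. Their median log2 fold change was -0.48, against 0.01 for all tested genes, and 31 of 33 lay below 0. With an offset for transcript length in each library, 8 were lower and the median was -0.22. In 19 genes (57.6%) every Het_B12 library was below every Het_PBS library, against 4.07% of all tested genes, and in 0 genes was the order the other way, against 3.75%. In bulk brain RNA, fewer cells of a type and less RNA per cell cannot be told apart.

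Together the 33 genes took 1.04%, 1.07%, 1.03%, 0.978% and 1.03% of all counts in the Het_B12 libraries, 1.23%, 1.21%, 1.37%, 1.35% and 1.68% in Het_PBS, and 1.24%, 1.31%, 1.02%, 1.05% and 1.32% in WT_PBS. The Het_B12 libraries were close to each other and all lay below the lowest Het_PBS library, while WT_PBS 3 and WT_PBS 4 stood among them. The means were 1.03% ± 0.0349 in Het_B12, 1.37% ± 0.191 in Het_PBS and 1.19% ± 0.145 in WT_PBS (SD, n = 5 each). Outside the counts of Gm42418, where reads of ribosomal RNA gather, of mitochondrially encoded genes and of haemoglobin genes, the means were 1.20% in Het_B12, 1.68% in Het_PBS and 1.48% in WT_PBS. The large-subunit genes took 1.23% ± 0.0359, 1.61% ± 0.143 and 1.46% ± 0.171 of all counts in Het_B12, Het_PBS and WT_PBS. The ratio of small- to large-subunit counts was 0.840 ± 0.0154 in Het_B12, 0.846 ± 0.0419 in Het_PBS and 0.813 ± 0.0292 in WT_PBS, with Het_PBS 5 at 0.916, the highest of the 15 libraries.

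**Figure D1:**
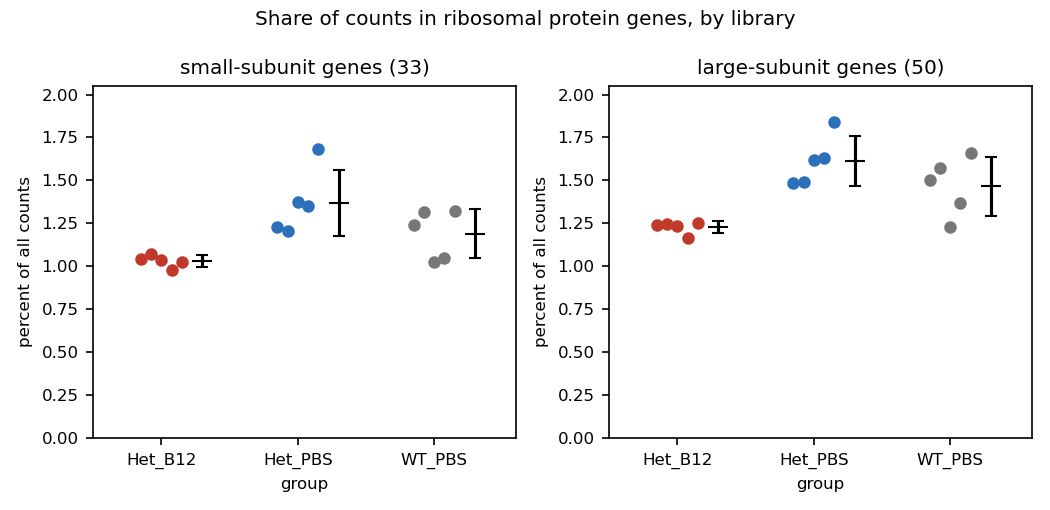
Percent of all counts in the 33 small-subunit genes (left) and the 50 large-subunit genes (right) in each library, with replicates 1 to 5 from left to right in each group and the mean ± SD beside them. The 5 Het_B12 libraries lie between 0.978% and 1.07% for the small subunit, all below the 5 Het_PBS libraries.

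Rps14, a protein of the subunit's platform near the path of the messenger, had the highest mean level of the 33 and the smallest p. Rps14 had 876, 799.7, 869, 1108 and 1049 CPM in Het_B12, 1489, 1571, 2127, 1896 and 1871 in Het_PBS and 1862, 1693, 1394, 1459 and 1770.4 in WT_PBS libraries. Every Het_B12 library lay below every PBS library of either genotype. The log2 fold change was -0.93 ± 0.11 (adjusted p = 2.90e-06) against Het_PBS and -0.80 ± 0.11 (adjusted p = 1.39e-05) against WT_PBS, and it was 0.13 ± 0.11 (adjusted p = 0.846) between Het_PBS and WT_PBS.

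Rps26, Rps24, Rps7 and Rps29 belong to the genes mutated in human Diamond-Blackfan anaemia, and Rps26 contacts the messenger upstream of the start codon. Rps26 had 424, 425, 373, 414 and 413 CPM in Het_B12, 517, 627, 549.7, 622 and 688 in Het_PBS and 451, 576, 434, 443 and 550.3 in WT_PBS libraries. All Het_B12 libraries of Rps26 were below all PBS libraries, Het_B12 3 being the lowest. The difference was -0.55 ± 0.11 (adjusted p = 0.000771) against Het_PBS and -0.26 ± 0.11 (adjusted p = 0.132) against WT_PBS, which did not pass in spite of the separation. With the offset for transcript length, Rps26 had -0.26 (adjusted p = 0.101) against Het_PBS.

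Rps24 also separated the heterozygotes. Rps24 had 813, 755, 607, 562 and 585 CPM in Het_B12, 979, 999, 962, 997 and 1294 in Het_PBS and 776, 1054, 727, 642 and 989.9 in WT_PBS libraries. The Het_B12 libraries lay below all Het_PBS libraries and overlapped the wild types, and Het_PBS 5 stood above the other 4 of its group. Its difference was -0.65 ± 0.12 (adjusted p = 0.000771) against Het_PBS, -0.33 ± 0.12 (adjusted p = 0.0981) against WT_PBS and 0.32 ± 0.12 (adjusted p = 0.574) between Het_PBS and WT_PBS. Of the 10 fits that left out 1 of the libraries compared, 2 called Rps24 against WT_PBS. The adjusted p there was 0.0421 without WT_PBS 3 and 0.27 without WT_PBS 2.

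Rps7, a protein of the body, needed for ribosomal RNA processing, was lower in the same comparison. Rps7 had 208, 184, 199.7, 166 and 185 CPM in Het_B12, 263, 246, 293, 299 and 418 in Het_PBS and 251.7, 305, 193, 169 and 235 in WT_PBS libraries. Het_B12 lay below all of Het_PBS, and WT_PBS 3 and WT_PBS 4 lay within its range. The difference was -0.69 ± 0.13 (adjusted p = 0.00102) against Het_PBS, -0.29 ± 0.14 (adjusted p = 0.198) against WT_PBS and 0.40 ± 0.13 (adjusted p = 0.524) between Het_PBS and WT_PBS.

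Rps29, a small zinc-binding protein of the head, had the second highest mean level. Rps29 had 802, 832, 840.0, 749.6 and 861 CPM in Het_B12, 993, 991, 1237, 1294 and 1612 in Het_PBS and 1151, 1176, 870.1, 816 and 921 in WT_PBS libraries. Het_B12 lay below all of Het_PBS but overlapped the wild types, and Het_PBS 5 was the highest library. The difference was -0.58 ± 0.12 (adjusted p = 0.00155) against Het_PBS and -0.27 ± 0.12 (adjusted p = 0.168) against WT_PBS. With the offset for transcript length, Rps29 had -0.15 (adjusted p = 0.441) against Het_PBS.

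**Figure D2:**
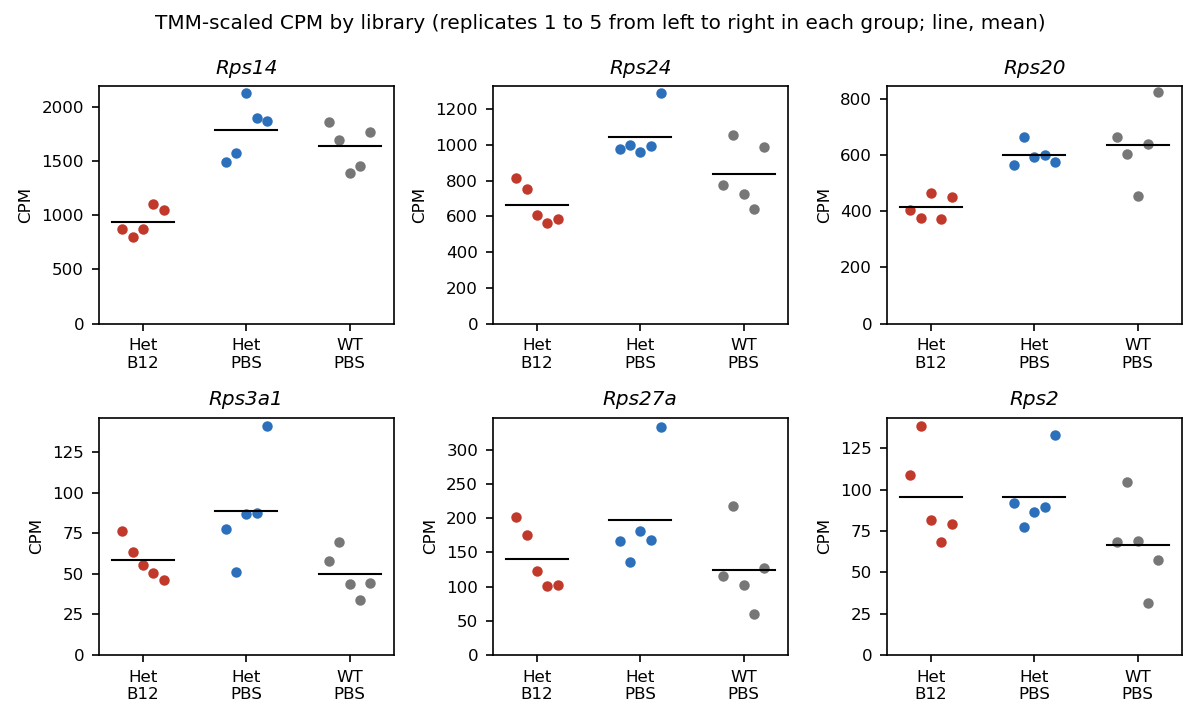
TMM-scaled CPM of 6 small-subunit genes in each library, with Het_B12 in red, Het_PBS in blue and WT_PBS in grey, replicates 1 to 5 from left to right and a line at each mean. In Rps14, Rps24 and Rps20 the red points lie below all blue points, and in Rps3a1, Rps27a and Rps2 the groups overlap.

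The other genes that were lower in Het_B12 than in Het_PBS include Rps12 (-0.58 ± 0.12, adjusted p = 0.0017), Rps15a (-0.57 ± 0.12, adjusted p = 0.00214) and Rpsa (-0.55 ± 0.11, adjusted p = 0.00155), the last also known as a laminin receptor. Fau, which encodes a ubiquitin-like protein fused to a small-subunit protein, was lower as well (-0.51 ± 0.11, adjusted p = 0.00315). Rps19, the gene most often mutated in Diamond-Blackfan anaemia, had a difference of -0.44 ± 0.10, adjusted p = 0.00547 and Rps15 one of -0.46 ± 0.10, adjusted p = 0.00367. Of the 19 calls, 15 held in all 10 fits that left out 1 of the libraries compared, and the counts there were 15 to 19. Rps3a1, Rps13, Rps9 and Rps21 lost theirs in 7, 7, 6 and 5 of those fits, with the highest adjusted p at 0.209 for Rps3a1 and 0.174 for Rps21 when Het_PBS 5 was left out, 0.122 for Rps13 without Het_PBS 3 and 0.0652 for Rps9 without Het_PBS 2. Without both WT_PBS 3 and Het_PBS 5 the count was 17 and the median -0.43. With the offset for transcript length, 11 of the 19 calls were lost, among them those of Rps12 (-0.25, adjusted p = 0.157), Fau (-0.24, adjusted p = 0.161), Rps19 (-0.18, adjusted p = 0.3004) and Rps15 (-0.09, adjusted p = 0.648).

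Of the 14 genes not called in this comparison, 12 lay below 0. Rps10 (-0.38 ± 0.13, adjusted p = 0.0544), Rps28 (-0.29 ± 0.11, adjusted p = 0.116) and Rps3 (-0.35 ± 0.12, adjusted p = 0.0763), the last a protein of the messenger's entry channel, did not pass the test although their Het_B12 libraries lay below all Het_PBS libraries. Rps4x, the X-linked member, had -0.22 ± 0.16, adjusted p = 0.454, Rps16 -0.22 ± 0.19, adjusted p = 0.54 and Rps18 -0.36 ± 0.18, adjusted p = 0.248. Without Het_PBS 5 these 3 were at -0.07, -0.04 and -0.11.

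Rps6, the small-subunit protein phosphorylated by S6 kinases downstream of mTOR, whose phosphorylated form marks active neurons, had the lowest count of all 33. Rps6 had 11.4, 8.24, 5.09, 2.38 and 5.93 CPM in Het_B12, 9.83, 5.97, 11.2, 8.67 and 10.2 in Het_PBS and 7.80, 8.68, 7.60, 7.92 and 6.27 in WT_PBS libraries. These rest on 6 to 26 reads a library, the groups overlapped, and Het_B12 4 was the lowest. Its difference was -0.48 ± 0.35 (adjusted p = 0.468) between Het_B12 and Het_PBS, which did not pass and has a wide error at this depth. Of the 50-base windows in the last 300 bases of its transcript, 83.3% also occur in a transcript of some other gene. Such windows were shared with 11 other genes, so that reads of Rps6 could have been lost or split in counting.

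**Figure D3:**
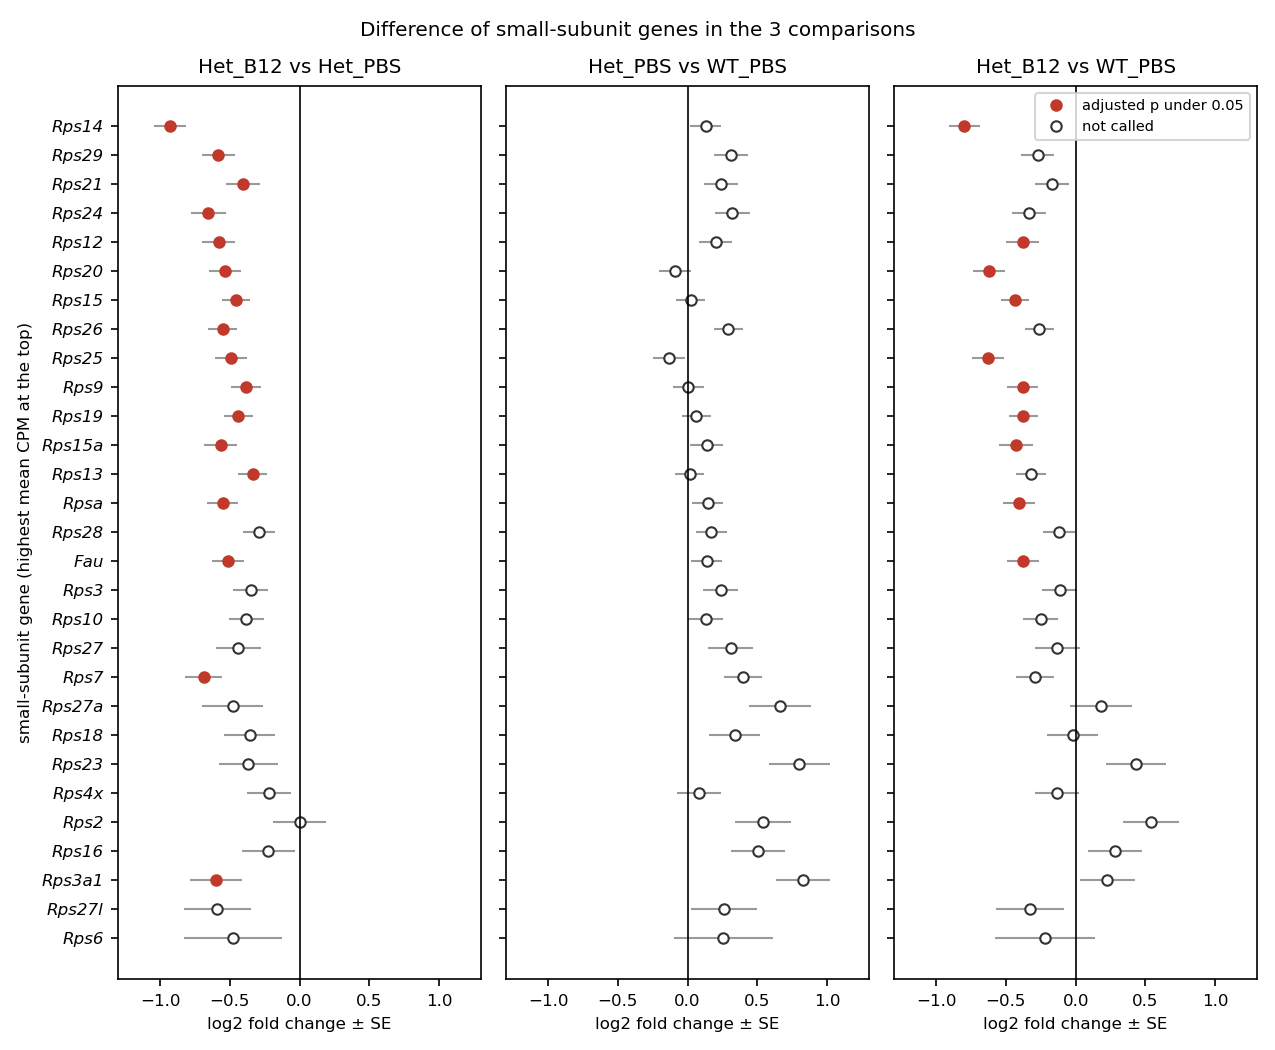
Log2 fold change ± SE of 29 small-subunit genes in the 3 comparisons from edgeR, ordered by mean CPM from the top, with filled points at an adjusted p under 0.05. Of the genes drawn, 17 are called between Het_B12 and Het_PBS and all lie below 0, none is called between Het_PBS and WT_PBS, and 10 are called between Het_B12 and WT_PBS, all below 0.

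Between Het_PBS and WT_PBS, the comparison of the mutant copy without the vitamin, 0 of the 33 genes passed the test in either direction, and 0.0% of all tested genes passed in either direction. At an unadjusted p under 0.05, 11 small-subunit genes (33.3%) were higher and 0 lower, against 3.85% and 3.65% of all tested genes. The median log2 fold change was 0.24, against -0.01 for all tested genes, with 31 of 33 above 0 and Rps20 and Rps25 below. In no gene did the groups separate, which 0.393% of all tested genes did upward and 0.444% downward. Without Het_PBS 5 the median was 0.13, and without both Het_PBS 5 and WT_PBS 3 it was 0.06. This comparison and the one before it share the Het_PBS libraries, so that high values in Het_PBS enter both with opposite sign.

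Rps3a1, which binds initiation factors, had the largest difference here. Rps3a1 had 76.4, 63.8, 55.3, 50.8 and 46.0 CPM in Het_B12, 77.7, 51.4, 87.2, 87.5 and 141 in Het_PBS and 57.9, 69.4, 43.8, 34.2 and 44.7 in WT_PBS libraries. Het_PBS 5 was the highest library and Het_PBS 2 lay within the wild-type range. The difference was 0.83 ± 0.19 (adjusted p = 0.226) between Het_PBS and WT_PBS and -0.60 ± 0.19 (adjusted p = 0.0432) between Het_B12 and Het_PBS. Without Het_PBS 2 the first reached an adjusted p of 0.0133 and without WT_PBS 2 one of 0.021, while without Het_PBS 5 it had an adjusted p of 0.673.

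Rps23, a protein of the decoding centre that bears on accuracy, and Rps27a, which is made as a fusion with ubiquitin, followed. Rps23 had 137, 151, 87.6, 75.1 and 68.7 CPM in Het_B12, 112, 75.3, 123, 139.6 and 225 in Het_PBS and 97.7, 108, 68.4, 50.0 and 61.8 in WT_PBS libraries. Rps27a had 202, 176, 123, 101 and 102 CPM in Het_B12, 167, 135, 181, 168 and 334 in Het_PBS and 116, 219, 102, 59.6 and 127 in WT_PBS libraries. In both genes Het_PBS 5 was far above the rest, and Het_B12 1 and Het_B12 2 were the 2 highest of their group. Rps23 differed by 0.80 ± 0.22 (adjusted p = 0.444) between Het_PBS and WT_PBS and by -0.37 ± 0.21 (adjusted p = 0.322) between Het_B12 and Het_PBS. Rps27a differed by 0.66 ± 0.22 (adjusted p = 0.524) and -0.48 ± 0.22 (adjusted p = 0.188) in the same 2 comparisons. Without Het_PBS 5, Rps23 had -0.12 and Rps27a -0.22 between Het_B12 and Het_PBS. Rps27a then had 0.40 between Het_PBS and WT_PBS, and without WT_PBS 2 it had 0.95 with an adjusted p of 0.0406.

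Between Het_B12 and WT_PBS, 11 genes (33.3%) were lower and 1 was higher, where 4.11% of all tested genes were lower and 3.22% higher. The median was -0.26, against 0.01 for all tested genes, with 27 of 33 below 0. Every Het_B12 library lay below every wild-type library in 4 genes (12.1%), Rps14, Rps15, Rps19 and Rps26, against 2.94% of all tested genes, and above it in 0, against 2.44%. Of the 11 lower calls, 5 (among them those of Rps14, Rps15, Rps20 and Rps25) held in all 10 fits that left out 1 library, and the count of lower genes there was 5 without WT_PBS 5, 6 without WT_PBS 2, 7 without Het_B12 1, Het_B12 2 or WT_PBS 1, and up to 14 without WT_PBS 3. The count of higher genes in these fits was 0 to 2. Without WT_PBS 5 the adjusted p was 0.205 in Rps12, 0.147 in Rps9, 0.134 in Fau, 0.0931 in Rps15a and 0.0719 in Rps19, and without WT_PBS 1 it was 0.0824 in Rpsa. Without both WT_PBS 3 and Het_PBS 5 the count of lower genes was 17.

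Rps25, which is needed for initiation at some viral internal entry sites, and Rps20, a protein of the head, differed from the other lower genes in standing slightly below 0 between Het_PBS and WT_PBS, Rps20 except without WT_PBS 5 (0.02). Rps25 had 335, 341, 386, 390.1 and 408 CPM in Het_B12, 482, 519.6, 502, 539 and 577 in Het_PBS and 567, 589, 407, 591 and 717 in WT_PBS libraries. Rps20 had 405, 377, 464, 373 and 451 CPM in Het_B12, 563, 665, 594, 599 and 577 in Het_PBS and 666, 603, 456, 639.7 and 824 in WT_PBS libraries. In both genes Het_B12 lay below all Het_PBS libraries, and WT_PBS 3 alone of the wild types reached into its range. Rps25 had -0.49 ± 0.11 (adjusted p = 0.00457) against Het_PBS, -0.63 ± 0.11 (adjusted p = 0.000465) against WT_PBS and -0.13 ± 0.11 (adjusted p = 0.843) between Het_PBS and WT_PBS. Rps20 had -0.53 ± 0.11 (adjusted p = 0.00256), -0.62 ± 0.11 (adjusted p = 0.00059) and -0.09 ± 0.11 (adjusted p = 0.902) in the same comparisons. Trappc4 lies over Rps25 on the opposite strand with more than 10% as many reads, as do Vps52 over Rps18 and Snhg9 over Rps2, and no source used here gives the strand setting of the counting.

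Rps2, which lines the entry of the messenger, stood apart from most of the others at a difference of 0 between Het_B12 and Het_PBS. Rps2 had 109, 138, 81.8, 68.3 and 79.5 CPM in Het_B12, 92.2, 77.6, 86.3, 89.6 and 133 in Het_PBS and 68.2, 105, 69.0, 31.7 and 57.7 in WT_PBS libraries. The groups overlapped, with Het_B12 2 highest of its group and WT_PBS 2 highest of the wild types. Rps2 had 0.00 ± 0.19 (adjusted p = 0.999) against Het_PBS, 0.54 ± 0.20 (adjusted p = 0.0912) against WT_PBS and 0.54 ± 0.20 (adjusted p = 0.532) between Het_PBS and WT_PBS, and the first of these changed sign under several settings. Windows at its 3′ end are shared with 51 other genes (78.1% of windows).

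Rps27l is a paralog of Rps27 and a target of p53, and the pair was compared as a ratio within each library. Rps27 had 244, 243, 195, 178 and 208 CPM in Het_B12, 277, 224, 251, 286 and 415 in Het_PBS and 314, 298, 129, 191 and 236 in WT_PBS libraries. Rps27l had 10.9, 13.3, 17.7, 12.3 and 11.2 CPM in Het_B12, 23.9, 15.9, 21.1, 21.1 and 16.7 in Het_PBS and 23.8, 12.7, 15.8, 11.3 and 18.4 in WT_PBS libraries. Rps27l stood at 4.03% to 12.2% of Rps27. The log2 ratio of Rps27l to Rps27 was -3.99 ± 0.385 in Het_B12, -3.83 ± 0.442 in Het_PBS and -3.77 ± 0.551 in WT_PBS (SD, n = 5 each). The groups overlapped, and the differences were -0.16 (exact two-sided permutation p = 0.548), -0.06 (p = 0.881, exact) and -0.22 (p = 0.484, exact) for Het_B12 against Het_PBS, Het_PBS against WT_PBS and Het_B12 against WT_PBS, with adjusted p of 0.821, 0.881 and 0.821 over the 3. The smallest p that 5 against 5 allows is 0.00794. Both genes lay below 0 between Het_B12 and Het_PBS without passing, Rps27 at -0.44 ± 0.16 (adjusted p = 0.0898) and Rps27l at -0.59 ± 0.24 (adjusted p = 0.131). Without Het_PBS 5, Rps27 had -0.28, and with the offset for transcript length it had 0.02. All windows of the Rps27 3′ end (100%) also occur in some other gene, and 9 other genes share such windows, so its counts are uncertain.

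**Figure D4:**
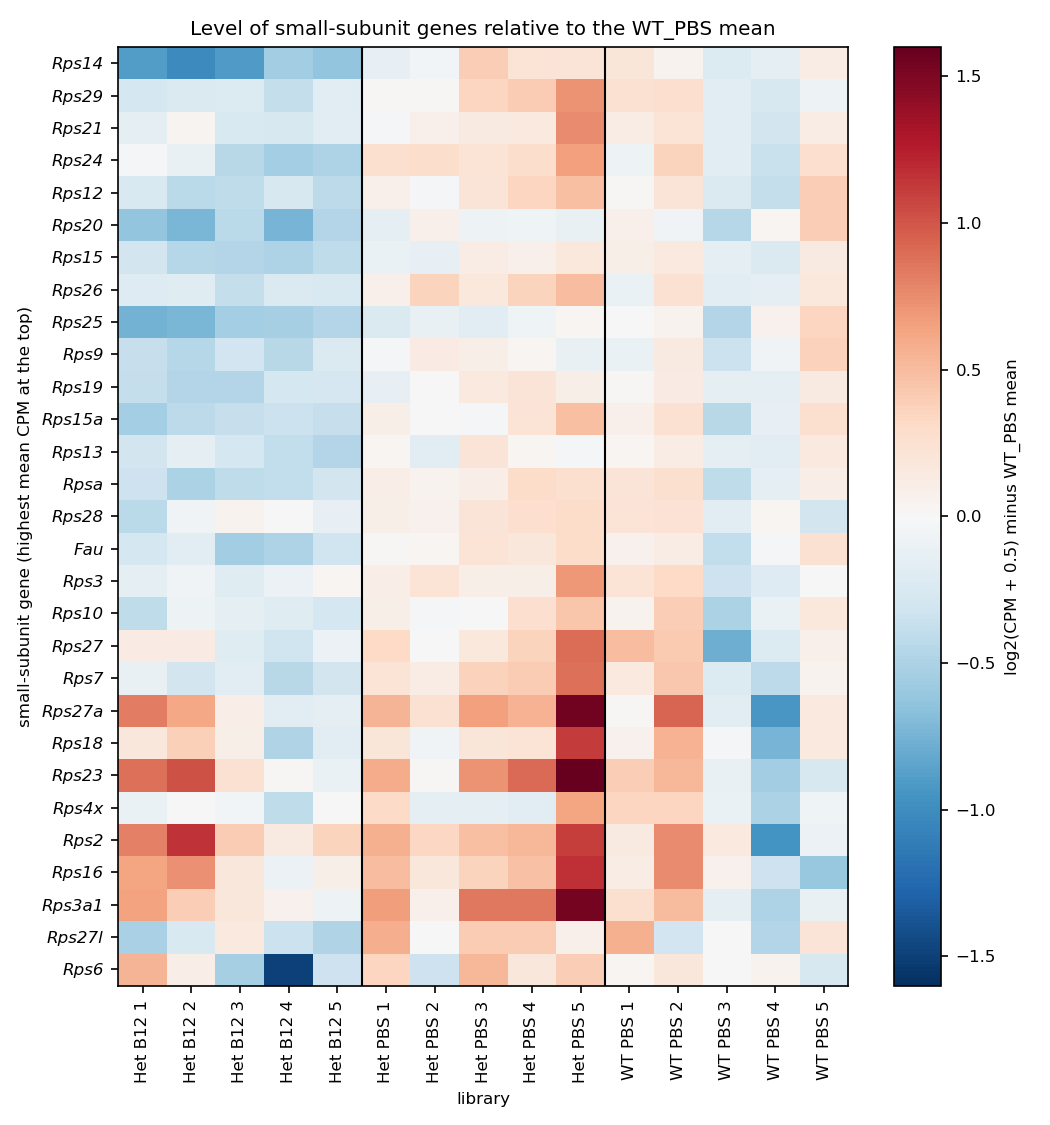
Level of 29 small-subunit genes in each library as log2(CPM + 0.5) minus the mean of the WT_PBS libraries, with genes in order of mean CPM from the top. The Het_B12 columns are mostly blue in the upper rows, the Het_PBS columns are mostly red, and WT_PBS 3 and WT_PBS 4 are mostly blue.

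Libraries differed across the whole set. Between 5 and 10 of the 33 genes were above the wild-type mean in each Het_B12 library and 22 to 30 in each Het_PBS library. In the wild types, 30, 30 and 24 were above it in WT_PBS 1, 2 and 5, against 2 in WT_PBS 3 and 5 in WT_PBS 4. Het_PBS 5 held the highest value of the 15 libraries in 22 of the 33 genes.

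The differences varied with the genes' level in CPM, a 3′ count that is not divided by transcript length. The 23 genes with a mean of at least 200 CPM (a line drawn after the levels were seen) had a median of -0.51 with 18 lower between Het_B12 and Het_PBS, and -0.33 with 11 lower between Het_B12 and WT_PBS, where all 23 lay below 0. Calls rose with level in all tested genes. In the highest of 5 classes by level (from 79.8 CPM), 12.3% were lower in Het_B12 against Het_PBS and 13.1% against WT_PBS. In the lowest class 1.02% and 1.11% were. The 10 genes under 200 CPM (among them Rps27a, Rps18, Rps23, Rps4x, Rps2, Rps16, Rps3a1, Rps27l and Rps6) had medians of -0.36 and 0.21 in the same comparisons, and 6 of the 10 lay above 0 against WT_PBS. Between Het_PBS and WT_PBS the medians were 0.14 for the 23 and 0.50 for the 10. The coefficient of variation within groups had a median of 8.28%, 13.3% and 18.4% in the 23 and 25.7%, 28.2% and 30.2% in the 10, for Het_B12, Het_PBS and WT_PBS. Within the 10, the highest Het_B12 library was replicate 1 or 2 in 8 genes, the highest Het_PBS library was replicate 5 in 8, and the highest WT_PBS library was replicate 2 in 9. Over the 33 genes, Spearman's rho between level and log2 fold change was -0.35 for Het_B12 against Het_PBS, -0.53 for Het_PBS against WT_PBS and -0.67 for Het_B12 against WT_PBS, where all tested genes had -0.11, 0.01 and -0.11. These describe genes that share libraries and are given without a test.

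The 3′ ends of most of the genes also matched transcripts of other genes in part. Matches on either strand counted, and genes lying over the same place were left in. At least 1 of the 50-base windows in the last 300 bases of the transcript occurred in another gene's transcript for 27 of the 33, and more than 50% of the windows did for 19. Among all tested genes 13.4% had such a window and 6.77% had more than 50%. No such window occurred in 6 genes, among them Rps24, Rps20, Rps15a, Rps3 and Rpsa, and 5 of the 6 were among the genes lower in Het_B12 than in Het_PBS. The number of genes sharing a window was correlated with the log2 fold change at Spearman's rho of 0.43, 0.33 and 0.56 over the 33 genes in the 3 comparisons, Het_B12 against Het_PBS, Het_PBS against WT_PBS and Het_B12 against WT_PBS. No source used here says how multiply mapped reads were counted, and their part in these values was not tested. Of the 2 rows for copies of small-subunit genes in the table, Rps27rt had 132 reads in all and Rps12-ps3 had 1.

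Small-subunit transcripts are short, and the median difference of short transcripts lay below 0 in both comparisons of Het_B12. Their median annotated length was 774 bases, against 3158 for all tested genes, and 29 of 33 lay in the shortest of 5 equal classes of length. There, all tested genes had a median of -0.15 between Het_B12 and Het_PBS, 0.04 between Het_PBS and WT_PBS and -0.10 between Het_B12 and WT_PBS, against 0.11, -0.05 and 0.07 in the longest class. Among genes of no ribosomal protein that were both in the shortest class by length and in the highest of 5 by level, 109 of 451 (24.2%) were lower between Het_B12 and Het_PBS with a median of -0.23, against 15 of the 24 small-subunit genes there with a median of -0.45. Between Het_B12 and WT_PBS the 451 had a median of -0.17 and 110 lower, and the 24 a median of -0.27 and 8 lower. With an offset for transcript length in each library, 8 small-subunit genes remained lower between Het_B12 and Het_PBS (among them Rps14, Rps24, Rps7, Rps20, Rps25, Rps15a and Rpsa) with a median of -0.22 over the 33, and 5 were lower between Het_B12 and WT_PBS with a median of -0.08. These 8 were called in all 23 alternatives tried.

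**Figure D5:**
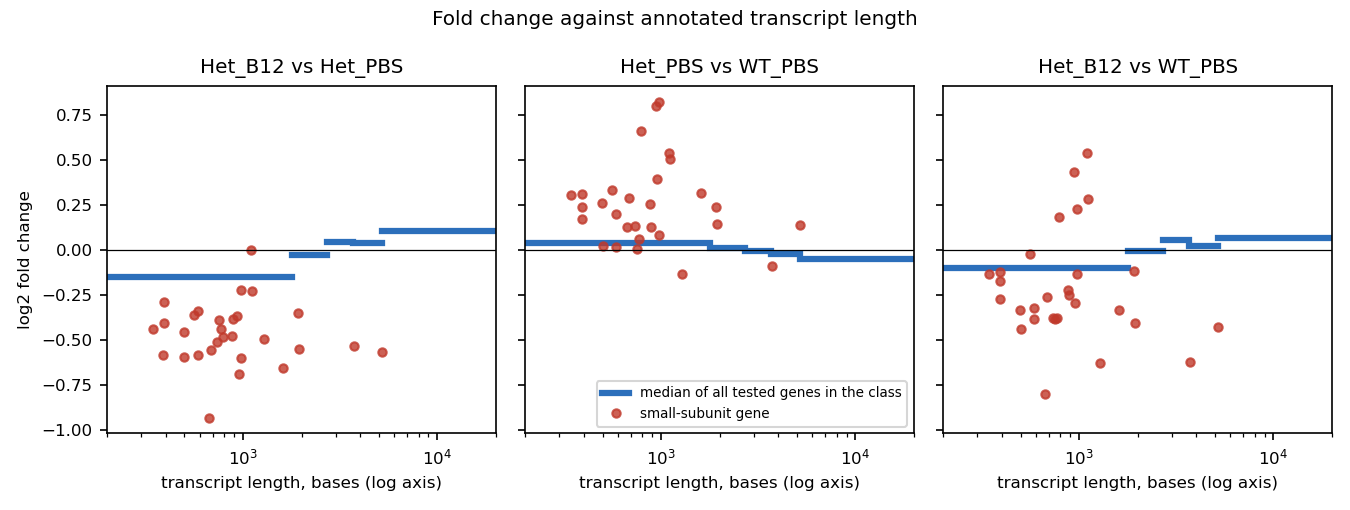
Log2 fold change of 29 small-subunit genes (red points) against annotated transcript length on a log axis in the 3 comparisons, with the median of all tested genes in each of 5 equal classes of length as blue lines, the outermost ending at the axis limits. Between Het_B12 and Het_PBS all red points except Rps2 lie below the blue line of the shortest class (-0.15), and between Het_PBS and WT_PBS most lie above it (0.04).

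Other features of the libraries also differed between the groups, not all in the same order, and their part in the results was not tested. Gm42418 took 5.29% ± 1.25 of counts in Het_B12, 8.52% ± 1.73 in Het_PBS and 11.9% ± 1.78 in WT_PBS (SD, n = 5 each). The 8 astrocyte markers summed to 3912 to 4581 CPM in Het_B12, 5996 to 6402 in Het_PBS and 5046 to 6872 in WT_PBS, and the 9 microglial markers to 372 to 448, 567 to 775 and 439 to 735 CPM in the same groups. The 7 endothelial markers ran the other way at 156 to 211 CPM in Het_B12, 69.7 to 106 in Het_PBS and 67.7 to 101 in WT_PBS. The 5 leukocyte markers summed to 9.53 to 15.5, 27.6 to 94.5 and 12.3 to 38.9 CPM in the same groups. The 6 markers of meninges and fibroblasts summed to 1599 to 2293 CPM in Het_B12, 2492 to 3385 in Het_PBS and 1890 to 4381 in WT_PBS. Haemoglobin genes took 0.0757% ± 0.0239 of counts in Het_B12, 0.216% ± 0.167 in Het_PBS and 0.0844% ± 0.0319 in WT_PBS (SD, n = 5 each), and these ranges overlapped. None of the listed markers was at 0 in all 15 libraries. Neuronal markers overlapped between the groups, as given above. Summed markers of oligodendrocytes, their precursors, pericytes and smooth muscle, choroid plexus and cerebellum overlapped too.

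The large-subunit genes, whose proteins pair with the small subunit in the ribosome, were lower too. Of the 50 genes, 47 were tested, and 26 were lower and 0 higher between Het_B12 and Het_PBS with a median of -0.43. Of all tested genes, 3.79% were lower and 3.47% higher there. Among the 451 short, high-level genes of no ribosomal protein described above, 24.2% were lower. Rplp1, an acidic protein of the stalk, averaged 1319 ± 65.1 CPM in Het_B12, 2187 ± 198 in Het_PBS and 2148 ± 272 in WT_PBS, with a difference of -0.73 ± 0.10, adjusted p = 1.61e-05 between Het_B12 and Het_PBS. Rpl36a (-0.90 ± 0.13, adjusted p = 2.64e-05), Rpl37 (-0.72 ± 0.10, adjusted p = 2.64e-05) and Rpl7 (-0.72 ± 0.12, adjusted p = 7.89e-05) followed. Between Het_PBS and WT_PBS 0 of the 47 passed with a median of 0.18. Between Het_B12 and WT_PBS 14 were lower and Rpl7a was higher with a median of -0.22. Of all tested genes, 4.11% were lower and 3.22% higher in that last comparison.

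The genes that build the small subunit had a median close to the 0.01 of all tested genes between Het_B12 and Het_PBS. Of 62 tested assembly factors, 4 were lower and 0 higher between Het_B12 and Het_PBS, where 3.79% of all tested genes were lower, with a median of -0.02. These were Fcf1 (-0.57 ± 0.13, adjusted p = 0.00466), a nuclease-family factor of the early processome, Ddx52 (-0.64 ± 0.16, adjusted p = 0.0119), an RNA helicase, Utp3 (-0.38 ± 0.12, adjusted p = 0.0361) and Lsm6 (-0.38 ± 0.12, adjusted p = 0.0406), which also serves in splicing. The counts between Het_B12 and WT_PBS were 4 lower and 1 higher (Nol6), where 4.11% of all tested genes were lower and 3.22% higher. None passed between Het_PBS and WT_PBS.

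Among 24 tested other mRNAs known to carry a TOP, 4 were lower and 0 higher between Het_B12 and Het_PBS, with a median of -0.26, beside the 3.79% of all tested genes that were lower. They were Npm1 (-0.74 ± 0.12, adjusted p = 7.16e-05), a nucleolar chaperone, the initiation factor gene Eif3e (-0.65 ± 0.17, adjusted p = 0.0167), Tpt1 (-0.57 ± 0.18, adjusted p = 0.0414) and the elongation factor gene Eef1b2 (-0.36 ± 0.11, adjusted p = 0.0431). Between Het_B12 and WT_PBS 5 were lower and 0 higher, beside 4.11% and 3.22% of all tested genes, and 0 passed between Het_PBS and WT_PBS. In the highest of 5 classes by level, 12.3% of all tested genes were lower in Het_B12 against Het_PBS and 13.1% against WT_PBS. Of the 451 short, high-level genes of no ribosomal protein described above, 24.2% were lower against Het_PBS, with a median of -0.23. The part of level and length in this list was not tested.

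Of 29 genes of TOP mRNA control and S6 kinase signalling, 2 were lower and 3 higher between Het_B12 and Het_PBS, where 3.79% of all tested genes were lower and 3.47% higher, with a median of 0.20. Over all tested genes the log2 fold change rose with transcript length in this comparison (Spearman's rho 0.24). The part of length in this list was not tested. Larp1, which binds the cap and TOP of ribosomal protein mRNAs, was higher at 0.46 ± 0.13, adjusted p = 0.0179, with 151 ± 22.3 CPM in Het_B12, 109 ± 13.9 in Het_PBS and 97.8 ± 13.2 in WT_PBS (SD, n = 5 each). Tia1, which binds TOP mRNAs under starvation, was higher at 1.01 ± 0.17, adjusted p = 0.000173, and Rptor, the mTOR complex subunit known as raptor, at 0.81 ± 0.23, adjusted p = 0.0264. Ssb (-0.45 ± 0.11, adjusted p = 0.00922), the La protein, and Cnbp (-0.43 ± 0.12, adjusted p = 0.0198) were lower. Against WT_PBS, Larp1, Tia1 and Eif4ebp2 were higher in Het_B12 and Ssb was lower, where 3.22% of all tested genes were higher and 4.11% lower. Between Het_PBS and WT_PBS none of the 29 passed. Of 26 partners of the mature subunit, Serbp1 (-0.39 ± 0.09, adjusted p = 0.00589), which occupies idle ribosomes, and the initiation factor gene Eif1b (-0.42 ± 0.11, adjusted p = 0.0107) were lower between Het_B12 and Het_PBS and 0 were higher, with a median of -0.07, beside the same shares of all tested genes. Rack1, a scaffold protein on the head, had -0.30 ± 0.10, adjusted p = 0.067 and did not pass.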

How the data were processed

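Raw counts per gene were deposited by the authors for 15 QuantSeq 3′ libraries. STAR, HTSeq, edgeR and build mm10 are named, per the submitters' processing notes, and no source used here gives versions, annotation, strand setting or handling of multiply mapped reads. All columns were mapped to samples by name, and groups came from the sample titles. Totals ran from 1683258 to 2746122 counts, so that a floor of 3 counts equals 1.78 to 1.09 CPM, covering counting error only. Of 30386 genes, 9918 were at 0 in every library and 30348 (99.87%) matched GENCODE M21, which gave lengths and overlaps.

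Counts of all 15 libraries were fitted in edgeR 4.0.16 (filterByExpr, TMM, 1 mean per group, quasi-likelihood test; 11718 genes, biological coefficient of variation 0.181), with Benjamini-Hochberg adjustment over all tested genes and calls at 0.05. Standard errors are the log2 fold change over the square root of F. On simulated counts with the same means, 61%, 73% and 67% of 2-fold changes and 30%, 27% and 27% of 1.5-fold changes were recovered for Het_B12 against Het_PBS, Het_PBS against WT_PBS and Het_B12 against WT_PBS, with 6.19%, 1.96% and 4.08% false calls. Lists are described by counts and medians with no set test. The Rps27l to Rps27 ratio used CPM plus 0.5 and an exact permutation test over 252 splits. Alternatives used limma 3.58.1 and DESeq2 1.42.0 among others. Named with every library's values were the 6, 4 and 4 genes with the smallest p in Het_B12 against Het_PBS, Het_PBS against WT_PBS and Het_B12 against WT_PBS, the highest and lowest by level, Rps6, Rps27, Rps27l and genes against the median's direction; of each list, up to 4 genes with the smallest p. Rptor, Nol6, Rpl7a and Eif4ebp2 were named after their values were seen. The single values of 4 of the 33 genes are not reported here, and counts, medians and sums include them. The members and lists were chosen with earlier results of these data known.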

Additional observations from a re-analysis of the deposited data

Results flagged for a closer look

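In 5 of the 48 groups of 5 libraries looked at, 1 library lay far from the other 4 of its group; chance flags about 1 group in 20. Het_PBS 5 was the far library in 4 of the 5 cases. Its Rps24 level was 1294 CPM against 962 to 999 CPM in the other Het_PBS libraries, its Rps27a level was 334 CPM against 135 to 181 CPM, and its Rps2 level was 133 CPM against 77.6 to 92.2 CPM. Its log2 ratio of Rps27l to Rps27 was -4.59, against -3.77 to -3.51 in the other Het_PBS libraries. In Het_B12, replicate 3 had 373 CPM of Rps26 and the other 4 had 413 to 425 CPM.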

How the results depend on the processing

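Of 960 values of single genes recomputed under the alternatives, 903 kept their direction and side of the threshold, 21 gained and 16 lost a call and 20 changed sign, none of the last called in the fit reported. With an offset for transcript length, 8 genes were lower between Het_B12 and Het_PBS (median -0.22), and 5 lower and 2 higher between Het_B12 and WT_PBS; Rps27 then had 0.022 and 0.22 in these comparisons and Rps29 0.028 in the second. Without a filter on low counts, 3 genes were higher between Het_PBS and WT_PBS and 3 between Het_B12 and WT_PBS. Without both WT_PBS 3 and Het_PBS 5, 17 were lower between Het_B12 and WT_PBS; with libraries thinned to the smallest total, 0 were higher there. The cause was not tested. DESeq2 called 21 and 12 genes lower and limma-voom 19 and 12 in the comparisons of Het_B12 with Het_PBS and with WT_PBS, and each called 0 between Het_PBS and WT_PBS.

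Leaving out 1 library at a time, lower calls numbered 15 to 19 between Het_B12 and Het_PBS and 5 to 14 between Het_B12 and WT_PBS; higher calls numbered 0 to 2 between Het_B12 and WT_PBS and 0 to 2 between Het_PBS and WT_PBS. The Rps27l to Rps27 difference between Het_PBS and WT_PBS ran from -0.24 to 0.14. Rps2 ran from -0.17 to 0.14 between Het_B12 and Het_PBS, and Rps20 from -0.18 to 0.019 between Het_PBS and WT_PBS. Rps2 in Het_B12 against Het_PBS was -0.0081 with DESeq2 size factors, -0.0135 with DESeq2, -0.013 with limma-voom, -0.041 with quality weights, -0.011 in the 2-group fit, -0.0027 without a filter, -0.021 with TMM without ribosomal, mitochondrial and Gm42418 genes, -0.029 with thinning and -0.071 without Het_PBS 1 and 3. Outside Gm42418, mitochondrial and haemoglobin counts the share of small-subunit genes was 1.20% in Het_B12, 1.68% in Het_PBS and 1.48% in WT_PBS.

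Whether replicate numbers pair the libraries could not be settled. Correlations of same-numbered deviations ran from -0.084 to 0.089, and 10 of 30 best matches, each among 5 libraries, were with their own number. The check does not bear on the animal number shared by Het_PBS 5 and Het_B12 1. With the number as a block, 17 genes were lower between Het_B12 and Het_PBS, and 10 lower and 2 higher between Het_B12 and WT_PBS, and Rps2 had -0.0556 between Het_B12 and Het_PBS. At 6 to 26 reads a library, Rps6 could show large differences only.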
